A study of Mus musculus with 2 samples.

Results

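The regions described here are the wide stretches of open chromatin that both adrenal samples shared. They were chosen by measured values: a peak of the shorter replicate 2 list was taken when it was 500 bp or wider and overlapped at least 1 peak of the shorter replicate 1 list by 1 bp or more. The rule found 3975 regions of 55135 replicate 2 peaks, or 7.21%. The width in replicate 2 and the presence of a replicate 1 peak are therefore properties of the choice. Lengths, runs of accessible bases, numbers of replicate 1 peaks and values at a distance from a start follow in part from the width and are given as a description. The regions were set beside the 46449 narrower replicate 2 peaks, under 500 bp, that also overlapped replicate 1.

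DNase-seq treats nuclei with DNase I, an enzyme that cuts accessible DNA, and sequences the ends it leaves. The tissue was whole adrenal gland of B6CASTF1/J mice, the first-generation offspring of C57BL/6J and CAST/EiJ, female and 10 days old. Each of the 2 samples, biological replicates 1 and 2 of 1 group, carried a label of 3 females, and both labels name the same donor entry. There was no other condition, so the values are levels and shares in 2 samples, and no test over samples was possible.

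Whole tissue mixes cortex, medulla, capsule, vessels and blood, and a weaker signal from fewer cells of a type cannot be told apart from less accessible chromatin per cell. Of 4 cortex markers, Nr5a1, Star and Cyp11a1 had a peak at a start in both replicates, with heights of 3.24, 3.58 and 3.74 in replicate 1 and 2.09, 1.28 and 1.87 in replicate 2. Of the medulla markers, Dbh and Chga had one in both, while Th had one in replicate 1 and none in replicate 2. Among markers of other tissues, Umod and Slc12a1 of kidney, Ptprc and Gata1 of blood, and Pecam1 and Cdh5 of endothelium had no peak at a start in either replicate. Ucp1, the uncoupling protein of brown fat, had peaks of 2.58 in replicate 1 and 2.01 in replicate 2, and the part of neighbouring fat in the results was not tested. None of the 20 markers had a wide region at a start.

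A peak of open chromatin usually marks a stretch from which transcription factors have displaced nucleosomes. Promoters, the sequences around transcription starts, often lie in CpG islands, which are stretches rich in G, C and unmethylated CpG pairs, and such islands are often accessible over a longer stretch than other promoters. Genes of developmental regulators are known for long CpG islands. Footprints are short stretches inside open chromatin that are cut less than their surroundings, as happens under a bound protein.

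The 4 windows below show the base composition of single stretches in 3 wide regions and a narrower peak, with CpG pairs in capitals. All are given 5' to 3' on the plus strand of mm10, each 300 bp long and free of annotated exons. The Rreb1 window, chr13:37826632-37826931, lay within the widest region, and its centre was 150 bp upstream of an annotated start of this zinc-finger transcription factor gene. The Midn window, chr10:80150854-80151153, lay in the region that held the most replicate 1 peaks. Its centre was 150 bp upstream of an annotated start of the gene of midnolin, a protein that carries others to the proteasome. The Tnrc18 window, chr5:142813791-142814090, lay in an intron, in the widest region away from annotated starts. The last window, chr5:108726901-108727200, is centred on a narrower intergenic peak whose nearest start, 21887 bp away, belongs to Fgfrl1, and which was picked on the same chromosome for the same replicate 2 height of 1.41 as the Tnrc18 region, after its values had been seen. The windows held 28, 17 and 20 CpG pairs in the 3 wide regions and 2 in the narrower peak. Over the whole Rreb1, Midn and Tnrc18 regions the observed over expected number of CpG pairs was 0.810, 0.536 and 0.453. The median was 0.802 over all wide regions and 0.445 over those away from starts.
Rreb1: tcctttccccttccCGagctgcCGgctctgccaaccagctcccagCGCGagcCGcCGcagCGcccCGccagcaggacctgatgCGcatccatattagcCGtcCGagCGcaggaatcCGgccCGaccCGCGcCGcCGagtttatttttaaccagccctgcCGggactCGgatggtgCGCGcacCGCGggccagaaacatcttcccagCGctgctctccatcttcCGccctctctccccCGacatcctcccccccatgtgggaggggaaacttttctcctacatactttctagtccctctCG
Midn: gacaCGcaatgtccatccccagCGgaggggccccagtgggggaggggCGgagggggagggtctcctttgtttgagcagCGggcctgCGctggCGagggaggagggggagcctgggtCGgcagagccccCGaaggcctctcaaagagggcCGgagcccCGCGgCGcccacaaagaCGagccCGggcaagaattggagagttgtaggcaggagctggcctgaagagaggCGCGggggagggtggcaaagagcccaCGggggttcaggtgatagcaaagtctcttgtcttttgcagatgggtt
Tnrc18: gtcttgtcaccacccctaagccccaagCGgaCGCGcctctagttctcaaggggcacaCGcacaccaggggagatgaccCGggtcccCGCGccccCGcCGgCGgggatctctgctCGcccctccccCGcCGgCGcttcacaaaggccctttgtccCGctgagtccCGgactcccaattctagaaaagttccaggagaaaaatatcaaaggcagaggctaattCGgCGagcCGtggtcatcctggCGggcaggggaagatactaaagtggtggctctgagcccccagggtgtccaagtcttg
Fgfrl1: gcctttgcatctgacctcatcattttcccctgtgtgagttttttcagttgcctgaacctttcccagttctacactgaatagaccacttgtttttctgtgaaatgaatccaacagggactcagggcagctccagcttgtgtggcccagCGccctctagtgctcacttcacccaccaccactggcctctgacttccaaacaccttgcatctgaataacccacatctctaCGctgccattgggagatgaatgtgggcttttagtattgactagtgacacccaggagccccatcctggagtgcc

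A pair of further windows shows where footprints fell, with capitals for bases inside footprints of both replicates. Por encodes the cytochrome P450 oxidoreductase, which passes electrons to the microsomal enzymes of steroid synthesis, and its window is chr5:135688736-135689035. Nsd1 encodes a histone methyltransferase, and its window is chr13:55211241-55211540, in the widest of 3 regions that tied at 20 replicate 2 footprints, after that of Insm1, which had no exon-free stretch of 150 bp to show. Both windows ended at an annotated start of their gene on the plus strand. In Por 77 of the 300 bases lay in footprints of both replicates and 4 matches to the GC box (GGGCGG on either strand) were found. In Nsd1 these values were 18 bases and 3 matches.
Por: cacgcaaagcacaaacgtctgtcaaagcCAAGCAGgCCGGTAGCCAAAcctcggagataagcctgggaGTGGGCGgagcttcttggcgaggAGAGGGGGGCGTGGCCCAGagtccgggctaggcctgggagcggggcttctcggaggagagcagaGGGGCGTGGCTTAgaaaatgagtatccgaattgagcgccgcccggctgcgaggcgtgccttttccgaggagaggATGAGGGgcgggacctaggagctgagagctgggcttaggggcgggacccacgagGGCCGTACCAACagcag
Nsd1: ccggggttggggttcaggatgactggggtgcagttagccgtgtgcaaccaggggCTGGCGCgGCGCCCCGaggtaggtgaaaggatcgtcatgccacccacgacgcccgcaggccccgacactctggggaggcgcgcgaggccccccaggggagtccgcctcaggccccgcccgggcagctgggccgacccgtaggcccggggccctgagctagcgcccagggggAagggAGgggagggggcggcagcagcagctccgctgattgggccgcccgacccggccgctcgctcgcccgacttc

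The regions had a median width of 600 bp in replicate 2, with an interquartile range of 540 to 720 bp. The widest replicate 1 peak in each had a median width of 340 bp, with an interquartile range of 260 to 480 bp. Only 898 of them, or 22.6%, held a replicate 1 peak that was itself 500 bp or wider. In the whole lists such peaks made up 1.72% of replicate 1 and 7.38% of replicate 2, although replicate 1 had the longer list with 98813 peaks. At the threshold, the 3 highest regions of exactly 500 bp lay at Ogdh, Higd1a and Fkbp2, with replicate 2 heights of 7.37, 6.48 and 6.44. The 3 highest peaks of 499 bp lay at Lemd2, Xpo1 and Acvr2b, with heights of 1.10, 1.06 and 0.923. Over the wider classes the median replicate 2 height was 1.84 from 500 to 699 bp and 1.96 from 400 to 499 bp.

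In replicate 1 many regions were overlapped by several peaks, which can themselves overlap. A single replicate 1 peak overlapped 2162 of them, 2 peaks overlapped 1587, 3 peaks overlapped 207 and 4 peaks overlapped 17, and 1 region each held 5 and 6. The share with 2 or more was 45.6% (exact 95% binomial interval 44.1 to 47.2%, counting error over regions only), against 2.69% of the narrower shared peaks. Wider regions have more room, and the median width was 560 bp with 1 replicate 1 peak, 660 bp with 2 and 900 bp with 3 or more. Where 2 or more replicate 1 peaks lay wholly inside a region, which held for 648 regions, neighbouring centres were a median of 312.5 bp apart. In those the second peak had a median of 0.767 times the height of the first, with an interquartile range of 0.614 to 0.884. Over all 1813 regions with 2 or more the median was 0.738, with a range of 0.569 to 0.873. Both measures counted every replicate 1 peak that overlapped the region. Nested peaks share bases, as at Gsk3b, where a peak of 420 bp lay within one of 620 bp.

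The deposited false discovery rate (FDR) lists give a value for each stretch of bases, and every base of 77.5% of the regions stood at an FDR of 0.001 or less in replicate 1 and 92.7% in replicate 2. Of the narrower shared peaks 86.9% met this in replicate 1 and 80.4% in replicate 2. The regions were thus less often accessible throughout than narrower peaks in replicate 1 and more often in replicate 2, where their width was set. Around the centre of a region, the unbroken run of bases at that level had a median length of 1128 bp in replicate 1 and 1169 bp in replicate 2. The same runs measured 347 and 275 bp at the narrower shared peaks. The median runs of the regions were thus close in both samples, while the peak widths of 340 and 600 bp differed. The runs were taken at the centre of regions chosen for their replicate 2 width. Long runs in replicate 2 therefore follow in part from the choice, and the shortest one there was 413 bp. The narrower peaks had the longer median run in replicate 1. The close medians therefore cannot decide whether the regions extended equally far in both samples. At starts the contrast with narrower peaks was smaller, with runs of 1186 and 1225 bp in the regions and 736 and 728 bp in narrower peaks.

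**Figure D1:**
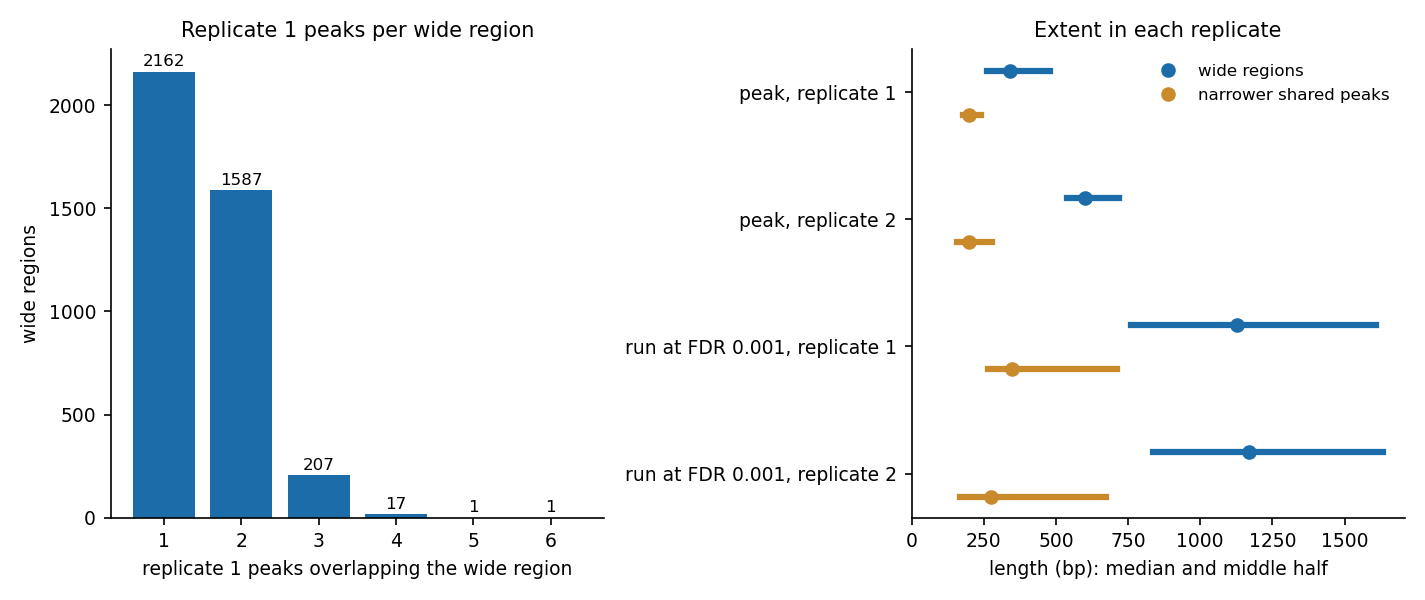
Left, the number of wide regions by how many replicate 1 peaks overlap them, from 2162 with 1 to 1 with 6. Right, lengths in bp as medians (points) with the interquartile range (bars) of the peaks and of the runs at an FDR of 0.001 in each replicate, for 3975 wide regions and 46449 narrower shared peaks; the runs of the wide regions have medians of 1128 and 1169 bp in replicates 1 and 2.

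Peaks of the replicate 2 list overlap one another at these places. Of the regions, 39.8% overlapped another peak of the same list, against 3.36% of the narrower shared peaks, and the 3975 regions formed 3708 separate loci once overlapping ones were merged. Neighbouring regions can therefore share bases and are not independent. Without the regions that overlapped another peak, 29.1% held 2 or more replicate 1 peaks and 87.4% lay within 1 kb of a start. The regions covered 2462.85 kb, or 18.8% of the 13080 kb under replicate 2 peaks.

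The widest region, 2060 bp at chr13:37825781-37827840, covered several annotated starts of Rreb1. Its replicate 2 height was 2.21, and 5 replicate 1 peaks of 200 to 600 bp overlapped it with heights of 2.38, 2.50, 2.23, 1.36 and 1.32. Every base stood at an FDR of 0.001 or less in both samples. The next widest lay at Zfp703, a zinc-finger co-repressor gene (2020 bp, chr8:26977921-26979940), with 4 replicate 1 peaks and heights of 2.93 in replicate 1 and 1.72 in replicate 2. The Midn region (1860 bp, chr10:80150121-80151980) was overlapped by 6 replicate 1 peaks of 52 to 500 bp, with heights of 0.956 to 2.51. In replicate 2 the Rreb1 region was above the median height of the wide regions, which was 1.77. The Midn and Zfp703 regions, at 1.785 and 1.72, were near it.

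The fourth widest region lay at Insm1, a zinc-finger transcription factor of neuroendocrine and chromaffin cell differentiation (1720 bp, chr2:146221921-146223640). It was low, with heights of 0.822 in replicate 1 and 0.936 in replicate 2, yet held 14 footprints in replicate 1 and 22 in replicate 2, the most of any region in replicate 2. Its accessible bases were broken in replicate 1, where 79.3% stood at an FDR of 0.001 or less, and unbroken in replicate 2. Npr1, the receptor guanylyl cyclase for atrial natriuretic peptide, which lowers aldosterone output in the adrenal cortex, had a region of 1640 bp with heights of 3.02 and 1.71 in replicates 1 and 2. Adgrl3, an adhesion receptor gene of neurons, had a region of 1560 bp with heights of 0.488 and 0.490 and no footprint in either sample. Both regions were thus below 1 in height and far below the median of all wide regions, with many footprints at Insm1 and none at Adgrl3.

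**Figure D2:**
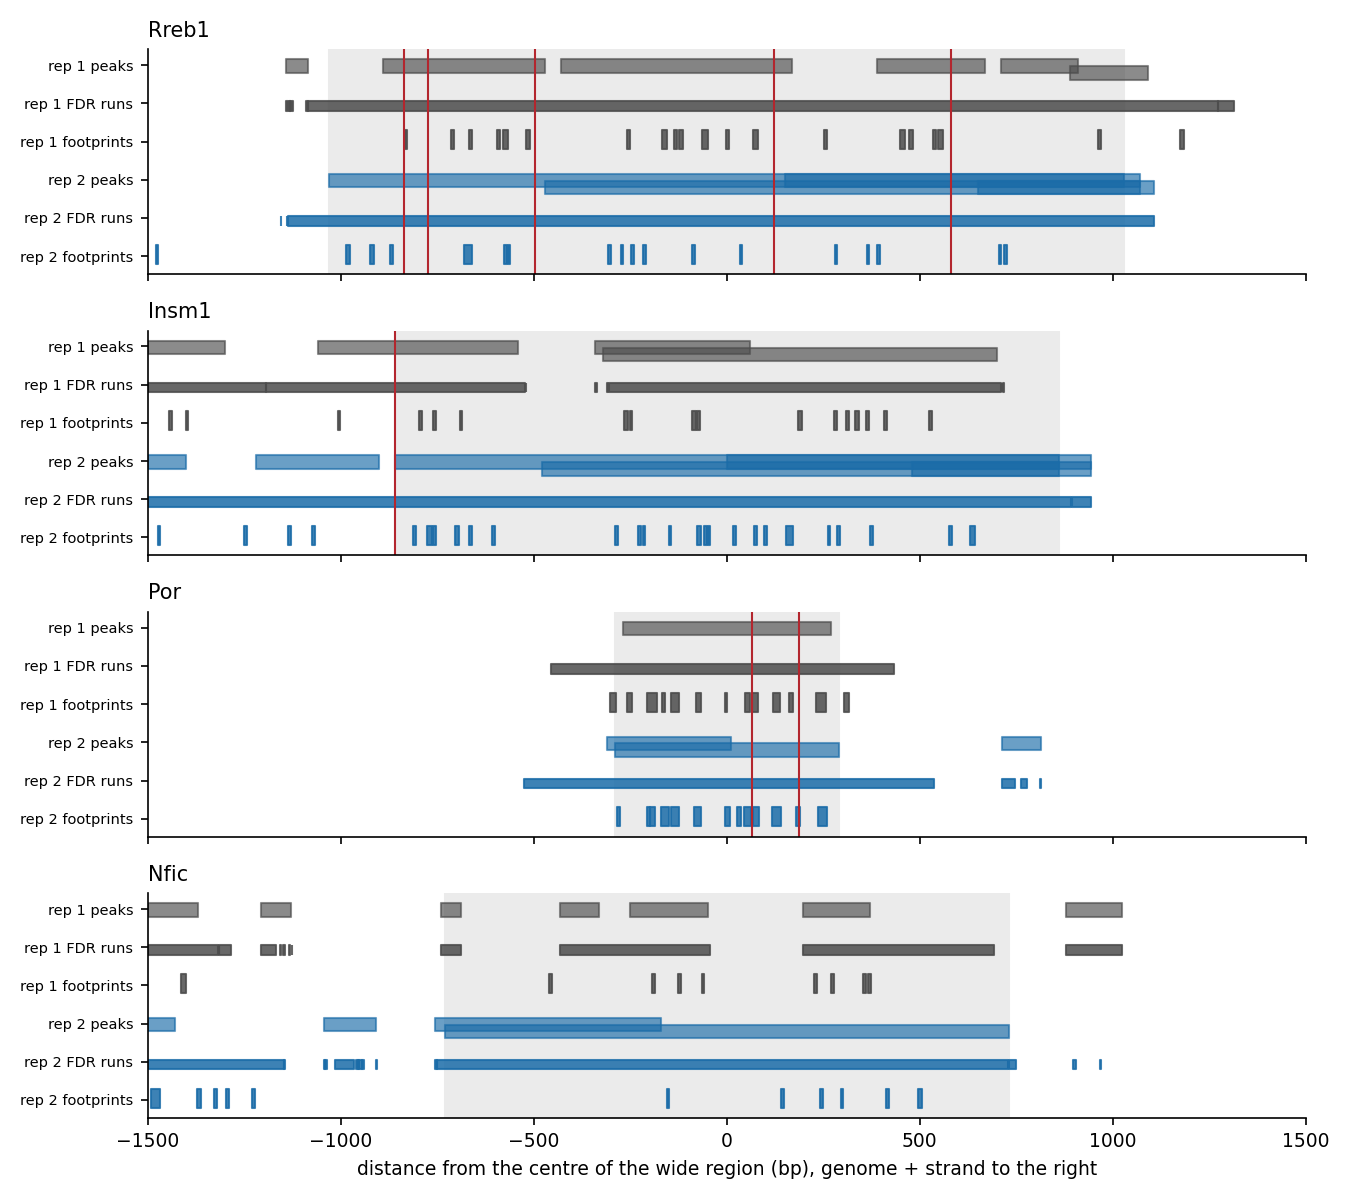
Peaks, runs of bases at an FDR of 0.001 or less and footprints of replicates 1 (grey) and 2 (blue) around the wide regions at Rreb1, Insm1, Por and Nfic, in bp from the centre of the region (shaded), with annotated starts of the named gene as red lines. Several replicate 1 peaks stand under 1 long replicate 2 peak at Rreb1, whose runs are unbroken across the region in both samples, while the replicate 1 runs at Insm1 and Nfic have gaps.

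Most of the regions lay at annotated transcription starts. Of the 3975, 3485 lay within 1 kb of a GENCODE M21 start, or 87.7% (95% interval 86.6 to 88.7%). The share was 42.6% of the narrower shared peaks and 46.1% of all shared peaks. A wide region reaches further for the same centre, but measured from the centre the shares were 85.4% of the regions and 41.7% of the narrower peaks. A start lay inside the region in 68.3% and inside the narrower peak in 24.7%. With starts of protein-coding transcripts alone the shares were 81.8% and 35.8%.

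From 150 bp on, the share at starts went up with width before the threshold was reached. It was 24.8% for shared peaks under 150 bp, 19.2% from 150 to 199 bp, 47.4% from 200 to 299 bp, 74.2% from 300 to 399 bp and 83.0% from 400 to 499 bp. The regions themselves had 86.7% from 500 to 699 bp, 90.2% from 700 to 992 bp and 89.3% (84.1 to 93.2%) from 1000 to 2060 bp. The share thus still went up across the threshold and up to 992 bp, in smaller steps than between the narrower classes. It was no higher in the widest class.

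The contrast was present within each of 4 equal classes of all shared peaks by replicate 2 height. In the lowest class 74.2% of 240 regions lay at a start, against 21.7% of 12405 narrower peaks. In the second class the shares were 76.4% and 29.4%, and in the next they were 86.5% and 41.5%. In the highest class they were 96.2% of 1544 regions and 81.3% of 11035 narrower peaks. The difference was thus smallest among the highest peaks.

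**Figure D3:**
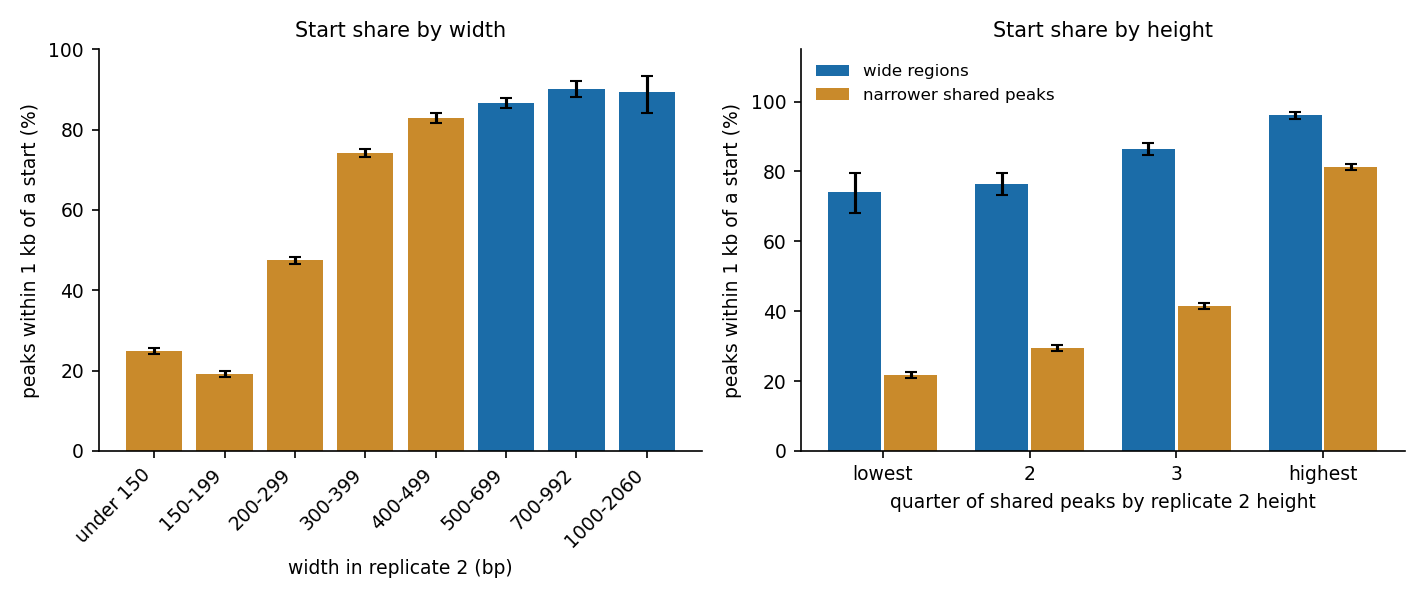
Share of shared replicate 2 peaks within 1 kb of an annotated start, by width (left) and by 4 equal classes of replicate 2 height (right), for wide regions (blue) and narrower shared peaks (orange), with exact 95% binomial intervals. The share is 19.2% at 150 to 199 bp and 90.2% at 700 to 992 bp, and wide regions stand above narrower peaks in each height class.

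The position of the regions around starts was measured in 2077 regions that held a coding start and had 1 protein-coding gene near, and in 8657 such narrower peaks. From the most 5' coding start inside it, a region extended a median of 226 bp upstream and 400 bp downstream, against 137 and 127 bp for the narrower peaks. The downstream side was the longer one in 68.9% (66.9 to 70.9%) of the regions and 47.7% of the narrower peaks. Taking the most 5' start puts any other start downstream by construction. Where a single coding start position lay inside, which held for 1078 regions and 5004 narrower peaks, the shares were 62.6% (59.7 to 65.5%) and 42.8% (41.4 to 44.2%). Measured from the most 3' start they were 49.7% and 33.7%, so whether most regions reached further downstream depended on the start used, while the regions had the higher share with each. Both of these settings were chosen after seeing the data.

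Accessible bases around the most 5' start follow in part from the width that defined both classes. From 400 to 450 bp downstream, 80.9% of bases around the regions were at an FDR of 0.001 or less in replicate 1 and 85.1% in replicate 2, against 56.5% and 57.5% around narrower peaks. From 450 to 400 bp upstream the shares were 53.8% and 52.2% around the regions, and 32.5% and 29.1% around narrower peaks. At this distance from the most 5' start, accessible bases were thus more frequent downstream in both classes and both samples. Any other start lies downstream of it by construction, and no other start was profiled.

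Starts of protein-coding genes on both strands lay within 1 kb of 9.26% (8.28 to 10.3%) of the 3251 regions at coding starts and of 8.63% (8.21 to 9.06%) of the 16621 narrower peaks there. These intervals overlap. The measure asks for starts on both strands and not how they face each other, so it does not count divergent promoters alone. By width the share was 9.98% from 400 to 499 bp and 10.3% from 500 to 699 bp. It was 6.66% from 700 to 992 bp and 7.19% from 1000 to 2060 bp. A further 234 regions at starts had no start of a coding transcript within 1 kb. Of these, 65 had the start of a lincRNA, 23 that of an antisense RNA and 10 that of a miRNA near them, while 95 lay at a non-coding transcript of a protein-coding gene.

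The regions were rich in G, C and CpG. GC content over the whole region had a median of 67.2%, against 56.7% in narrower peaks, and the observed over expected number of CpG pairs was 0.802 against 0.399. Narrower peaks near the threshold shared this trait. The 2 medians were 63.3% and 0.720 from 300 to 399 bp and 65.7% and 0.774 from 400 to 499 bp. Regions of 500 to 699 bp had 66.6% and 0.794. At starts these medians were 68.2% and 0.821 in the regions, and 64.0% and 0.746 in narrower peaks. A GC content of 50% or more with an observed over expected ratio of 0.6 or more in the central 300 bp was met by 2962 of 3485 regions at starts and 12873 of 19773 narrower peaks at starts. Away from starts the contrast was wider in relative terms, at 39.0% of the regions and 6.13% of the narrower peaks. In the lowest height class the median ratio was 0.621 in the regions and 0.259 in narrower peaks, while in the highest it was 0.865 and 0.822.

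In all 12 short motifs were counted in the central 300 bp on either strand, and no motif can lie inside another. They were the NF-Y box CCAAT, the GC box GGGCGG of SP and KLF factors, the ETS core CGGAAG, the CREB and ATF site TGACGTCA, the AP-1 site TGACTCA, the YY1 site AAGATGGCG, the E-box CACGTG, the TATA core TATAAA, the SF-1 site CAAGGTCA, the GATA site AGATAA, the NRF1 palindrome and the CTCF core. At starts only the GC box was more frequent in the regions, in 69.2% of 3485 regions and 58.9% of 19773 narrower peaks, against 35.5% of all shared peaks. The other 11 had a lower share in the regions. CCAAT was found in 22.4% of the regions and 31.6% of narrower peaks at starts, the NRF1 palindrome in 3.90% and 7.27%, and TGACGTCA in 0.746% and 2.50%. Over all shared peaks these 3 motifs had shares of 31.0%, 3.45% and 1.31%. The ETS core differed little, with 21.8% and 23.9%, against 15.0% of all shared peaks.

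The site of highest cutting within a region was not measured. The highest replicate 1 peak had its centre a median of 100 bp from the centre of the region. With the window moved to that peak, CCAAT was found in 26.0% of the regions and 33.0% of narrower peaks at starts, and the GC box in 71.2% and 59.1%. Away from starts, GGGCGG was found in 39.6% of 490 regions and 13.7% of 26676 narrower peaks, and the ETS core in 13.3% and 7.48%. The remaining sites away from starts included those of factors known from adrenal or other enhancers. CAAGGTCA, which SF-1 (the product of Nr5a1, the main regulator of steroidogenic cells) binds, was in 3.06% (1.72 to 5.00%) of the regions and 3.74% of narrower peaks, and in 4.49% and 3.81% with the window at the highest replicate 1 peak, so its order turned. In the central window the shares were, for AGATAA of GATA factors, 7.96% and 11.1%, and for the AP-1 site 6.53% and 9.52%. Over all shared peaks these 3 motifs had shares of 2.63%, 7.97% and 6.67%. A match is a run of letters and not a bound site.

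Heights are the authors' signal, whose normalisation is not stated for the peak lists, with the highest replicate 1 peak taken for each region. The median was 2.65 in replicate 1 and 1.77 in replicate 2 for the regions, against 1.80 and 1.09 for narrower shared peaks. The signal is in whole steps in each sample, and if each step is 1 sequenced tag the medians of the regions stand for 397 and 286 tags, with a counting error of 5.02% and 5.91%. At starts, width and height came apart. The median replicate 2 height there was 1.91 in the regions and 1.90 in narrower peaks, and in replicate 1 it was 2.85 and 3.16. The highest region in replicate 2 reached 7.41, at P4hb, a protein disulphide isomerase gene named after its value had been seen, against 73.0 for the highest narrower peak.

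Replicate 1 over replicate 2, the log2 height ratio had a median of 0.64 in the regions and 0.73 in narrower shared peaks. Replicate 1 was higher in 3508 regions, or 88.3% (87.2 to 89.2%), against 93.2% of narrower peaks and 92.8% of all shared peaks. From the lowest to the highest class of replicate 2 height the medians were 0.28, 0.34, 0.49 and 0.94 in the regions, and 0.67, 0.66, 0.63 and 0.94 in narrower peaks. The regions chosen on replicate 2 thus had the lower ratio in the lower 3 classes and the same one in the highest. With the replicate 1 peaks of a region summed, the ratio was 1.04 in the regions and 0.75 in narrower peaks. The order of both classes thus depends on how several replicate 1 peaks are counted.

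The 467 regions that were higher in replicate 2 included one at Sox9, a transcription factor gene of progenitor and cartilage cells, with heights of 0.769 in replicate 1 and 1.34 in replicate 2. Another, of 540 bp, lay at Gata2, a GATA factor of chromaffin and blood progenitor cells, with 0.615 and 1.07. Replicate 1 covered only 7.41% of it. It lay within an 880 bp region of the same gene that had 2.30 and 1.07, so the order there depended on the peak taken. At the other end an intronic region 1092 bp from the nearest start, of AC124973.1, had 3.86 in replicate 1 and 0.880 in replicate 2, and one at Scai, a gene named as a suppressor of cancer cell invasion, had 11.5 and 3.06. These regions were named after their values had been seen. With 1 sample on each side, no difference between the replicates at a single region could be tested.

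Footprints, which the choice did not use, were more numerous in the regions but sparser per length. A region held a median of 6 footprints in each replicate, with the highest number 26 in replicate 1 and 22 in replicate 2, while narrower peaks held a median of 3. Per 100 bp there were 0.977 footprints in replicate 1 and 0.958 in replicate 2 in the regions, against 1.33 and 1.28 in narrower peaks. The lower density held in each height class and in both samples, from 0.478 and 0.660 in the lowest, against 1.06 and 1.10 in narrower peaks, to 1.43 and 1.25 in the highest, against 1.76 and 1.60. It held away from starts too, with 0.871 and 0.892 against 1.32 and 1.30.

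Footprints of the regions were less often seen in both samples. Of their replicate 2 footprints, 46.9% overlapped one of replicate 1, against 62.7% in narrower peaks. Replicate 1 footprints were also sparser in the regions, which leaves fewer to overlap, and the part of this in the difference was not tested. From the lowest to the highest class the share was 19.1, 27.0, 37.2 and 61.4% in the regions and 47.9, 54.4, 62.0 and 74.5% in narrower peaks. No footprint was called in 324 regions in replicate 1 and 203 in replicate 2, and 137 regions had none in either. These are 8.15% and 5.11% of the regions in replicates 1 and 2, against 9.17% and 8.95% of narrower peaks. Atf3 and Myc, named after their values had been seen, were among the genes whose regions had none in either sample.

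Around coding starts the footprints peaked in the 50 bp just upstream in both classes and both samples. The regions had 1.59 footprint centres per 100 bp there in replicate 1 and 1.37 in replicate 2, against 1.90 and 1.77 around narrower peaks. Further out, where the narrower peaks have ended by their width, the order was the other way round. From 300 to 350 bp downstream there were 0.57 and 0.70 around the regions and 0.19 and 0.27 around narrower peaks, and from 350 to 300 bp upstream 0.44 and 0.44 around the regions and 0.20 and 0.19 around narrower peaks.

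**Figure D4:**
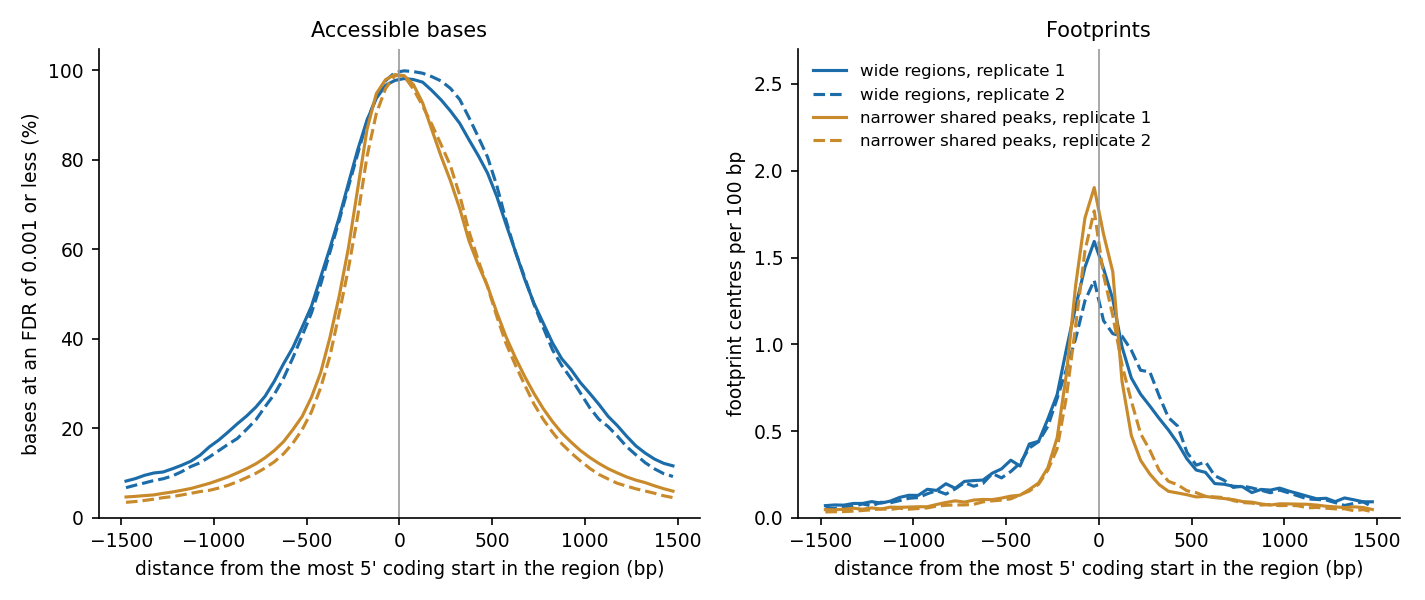
Percent of bases at an FDR of 0.001 or less (left) and footprint centres per 100 bp (right) in bins of 50 bp by distance from the most 5' coding start in the region, downstream to the right, for 2077 wide regions (blue) and 8657 narrower shared peaks (orange) in replicates 1 (solid) and 2 (dashed). Measured from this start, which puts any other start downstream, accessible bases reach further downstream than upstream in both classes. Footprints peak in the 50 bp before the start in all 4 lines.

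After Insm1 the most replicate 2 footprints lay in regions of several kinds of gene. Nsd1 held 16 in replicate 1 and 20 in replicate 2 over 1480 bp, and Jarid2, a Polycomb-associated protein, 14 and 20 over 1080 bp. Csf2ra, a cytokine receptor chain, held 26 and 20 over 1400 bp. Gsk3b, a kinase of the Wnt and insulin pathways, held 18 and 19, of which 14 of replicate 2 overlapped one of replicate 1, and Usp9x, an X-linked deubiquitinase, held 19 and 19 with 15 overlapping. At the low regions of Insm1 and Hoxb3os, 2 of 22 and 5 of 19 overlapped one of replicate 1, against 9 to 15 in the other 8 regions of this kind.

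Of 21924 protein-coding genes, 3162 had a wide region within 1 kb of a start, or 14.4%. Among the 13924 with any shared peak there the share was 22.7%. The counts for the gene lists were read beside these values, since the lists were chosen with results of these data known. The immediate early list, genes switched on within minutes of a signal, had 9 of 20, and all 20 had a shared peak. The circadian clock list had 6 of 17, and 17 of 17 had a shared peak. The lowest shares were those of blood, with 1 of 14, and kidney, with 1 of 12, of which 3 and 2 genes had a shared peak at a start. Next came steroid synthesis with 2 of 18, cholesterol synthesis 2 of 22 and the housekeeping list 2 of 18, while 14, 22 and 18 of these had a shared peak at a start.

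**Figure D5:**
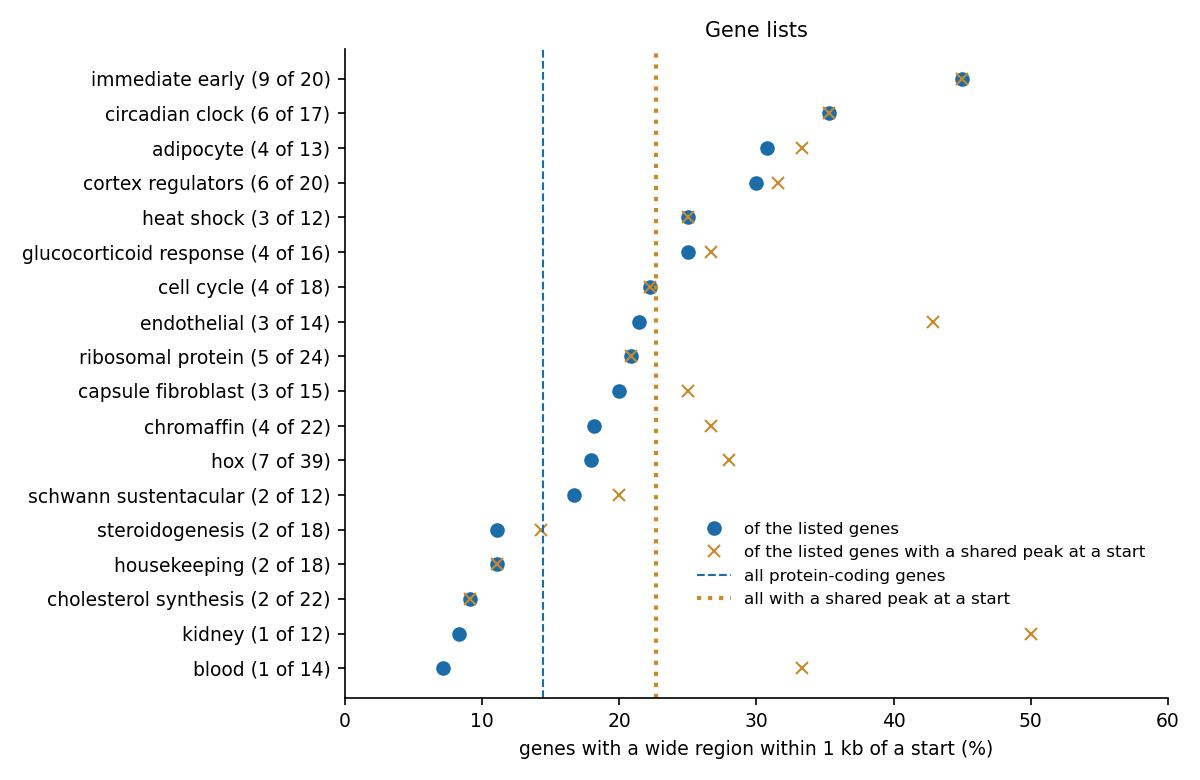
Share of the genes of 18 lists with a wide region within 1 kb of a start, among all listed genes (circles, counts on the axis) and among those with a shared peak at a start (crosses). The dashed line marks 14.4% of all protein-coding genes and the dotted line 22.7% of those with a shared peak; immediate early genes, with 9 of 20, stand highest among circles and cholesterol synthesis, with 2 of 22, among the lowest.

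Among immediate early genes the widest regions lay at Nr4a3, an orphan nuclear receptor (860 bp, heights 1.08 in replicate 1 and 0.954 in replicate 2), and Egr1, a zinc-finger factor (840 bp, 6.97 and 4.34). Junb and Fosl2, subunits of AP-1, had regions of 820 bp (2.56 and 1.60) and 800 bp (9.14 and 4.03). Jun, another AP-1 subunit, had 600 bp with 15.7 and 5.45, and Dusp1, a phosphatase of MAP kinases, 620 bp with 11.0 and 4.46. Heights thus ranged widely among genes of this list with regions of like width. Jun and Dusp1 were named after their values had been seen. Fosb and Egr2 had shared peaks of 480 and 440 bp and no wide region. The level of their transcripts was not measured.

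Among clock genes the widest were at Nfil3, a repressor with a leucine zipper (1160 bp, 5.01 and 3.01), and Rora, a nuclear receptor (1080 bp, 2.16 and 1.17). Bhlhe40, a repressor of the core loop, had 800 bp with 7.75 and 3.74, and Per1, a core repressor that glucocorticoids induce, had 560 bp with 12.3 and 4.78. Cry1 and Nr1d2 had narrower peaks, of 480 and 440 bp, with heights of 11.7 and 11.5 in replicate 1. Per1 was named after its values had been seen. It was the highest of the 6, and the other 5 had replicate 1 heights of 1.60 to 7.75. Of the 11 clock genes with narrower peaks, 9 had heights of 9.86 to 14.1, and Hlf and Bhlhe41 had 2.66 and 4.14. The wide regions of clock genes were thus mostly lower than the narrower peaks of the other clock genes. Each height is that of a single peak, and higher peaks at the same gene were not looked for.

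Regulators of the cortex had a wide region at 6 of 20 genes, with a shared peak at 19. They were Ptch1, the hedgehog receptor (1120 bp, 5.25 and 1.65), Lef1, a Wnt effector (940 bp, 1.53 and 0.961), and Nr4a2, an orphan nuclear receptor (820 bp, 1.66 and 1.26). Gata6, a GATA factor of the developing cortex, had 720 bp with 4.99 and 2.11. Cited2, a co-activator needed for the adrenal primordium in mice, and Gli1, a hedgehog effector, had 680 and 600 bp, and were named after their values had been seen. Creb1, the factor through which cyclic AMP acts, and Znrf3, an inhibitor of Wnt signalling, had narrower peaks of 460 bp each. With the most 5' start of each gene alone the count was 3 of 20.

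Among genes of steroid synthesis 2 of 18 had a wide region, or 11.1% (1.38 to 34.7%), near the 14.4% of all protein-coding genes. They were Por (580 bp, 14.0 and 5.89) and Mrap, an accessory protein of the corticotropin receptor (560 bp, 5.23 and 2.14). Lipe, the hormone-sensitive lipase that frees cholesterol, and Fdxr, the reductase of mitochondrial steroid hydroxylases, had peaks of 480 and 400 bp with replicate 1 heights of 5.13 and 11.0. In the cholesterol list the regions were at Insig1, which holds back the sterol sensor (560 bp, 3.33 and 1.70), and Srebf2, the factor that drives the pathway (500 bp, 1.40 and 1.52). Cyp51 and Idi1, enzymes of the pathway, had peaks of 460 and 440 bp with replicate 1 heights of 5.53 and 8.47. Scap, which escorts the product of Srebf2 and was named after its values had been seen, had a peak of 200 bp with 11.5 and 6.01.

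The chromaffin list had 4 of 22, among them Insm1, Gata2 (880 bp, 2.30 and 1.07) and Syt1, a calcium sensor of secretory vesicles (520 bp, 0.829 and 0.694). Phox2a and Isl1, factors of sympathetic and chromaffin fate, had peaks of 480 and 460 bp. The capsule and fibroblast list had 3 of 15, at Tbx18 (1180 bp, 1.18 and 1.26), Fbn1 (1060 bp, 2.03 and 1.70) and Vim (780 bp, 3.38 and 2.67). Glucocorticoid response genes had 4 of 16, at Klf13 (940 bp), Zbtb16 (700 bp), Mt2 (680 bp) and Klf9 (580 bp), and Ddit4 and Cdkn1a had peaks of 460 and 440 bp. The adipocyte list had 4 of 13, at Prdm16, a determinant of brown fat (920 bp, 1.44 and 1.33), Pparg (840 bp, 1.82 and 1.51), Lpl (776 bp) and Cidea (600 bp), while Cebpa and Ppargc1a had peaks of 340 bp each.

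Lists of other cells included regions of low height. Endothelial genes had 3 of 14, at Fli1 (742 bp, 1.16 and 1.24), Kdr (560 bp, 2.09 and 1.04) and Sox17 (544 bp, 0.461 and 0.564), and 7 of the 14 had a shared peak. Schwann and sustentacular genes had 2 of 12, at Foxd3 (1147 bp, 0.541 and 0.545) and Erbb3 (620 bp, 1.40 and 1.16). Blood genes had 1 of 14, at Tal1 (766 bp, 1.20 and 0.967), and kidney genes 1 of 12, at Lrp2 (1060 bp, 0.421 and 0.502). These are regulators or receptors with wide regions of low height at a start, and other peaks at these genes were not compared. The share of cells that carried these regions was not measured.

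Hox genes had 7 of 39, the widest the 758 bp region that Hoxd3 and Hoxd4 share (1.81 and 1.98). Ribosomal protein genes had 5 of 24, among them Rps18 (640 bp) and Rpl27 (600 bp), with Rplp2 at 480 bp just under the width. Cell cycle genes had 4 of 18, led by Ccnd2, the cyclin of early division (1300 bp, 1.50 and 1.35), and Ccne2 (800 bp, 3.97 and 2.32). Heat shock genes had 3 of 12, of which Hspd1 and Hspe1 share 1 region of 700 bp (14.4 and 4.83) between their divergent starts. The 2 housekeeping regions were at Ywhaz (560 bp) and Gapdh (554 bp), and Eef1a1 had a peak of 480 bp.

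Some genes had more than 1 separate region at their starts. This held for 261 genes, and 25 had 3 or more, which were named after their values had been seen. Cic, a repressor of growth factor targets, and Sox6, a factor of muscle and cartilage, had 4 each. The Cic regions had replicate 2 heights of 1.08 to 5.22, and those of Sox6 of 0.589 to 1.21. Ptch1 had 3 separate regions made of 6 overlapping peaks.

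Away from starts there were 490 regions, of which 226 were intergenic, 178 intronic and 86 exonic by the position of their centre. They kept closer to starts than narrower peaks of this kind, with a median distance of 6271.5 bp against 10736 bp, and 44.5% lay within 5 kb, against 29.2%. The widest were in an intron of Tnrc18 (1480 bp, chr5:142813201-142814680, heights 1.79 and 1.41) and in an exon of Hoxb3os, an antisense transcript of the Hoxb cluster (1480 bp, chr11:96345301-96346780, heights 1.27 and 1.19). The Hoxb3os region held 18 footprints in replicate 1 and 19 in replicate 2. An intron of Nfic, a nuclear factor I gene, held 1460 bp with 4 replicate 1 peaks of 52 to 200 bp. There 63.3% of bases stood at an FDR of 0.001 or less in replicate 1 and 99.9% in replicate 2.

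The other 7 of the 10 widest away from starts ranged from 1180 to 1360 bp. One of 1280 bp was 6021 bp from a start near Zfp503, one of 1180 bp lay in an exon 4008 bp from a start near Foxc1, a forkhead factor, and one of 1360 bp was on the X chromosome nearest to Gm14512. Regions of 1260, 1259 and 1234 bp lay nearest to starts of Tchh, Zmynd8 and Pofut2, in an exon, an intron and intergenic sequence. The region nearest to the lncRNA Lncppara (1220 bp, intronic) was higher than these, at 5.77 in replicate 1 and 3.04 in replicate 2. The highest away from starts lay in intergenic sequence nearest to Gm49539 (520 bp), at 15.1 and 5.71, and was named after its value had been seen.

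On the X chromosome 139 shared peaks were wide and 1054 narrower, so that the share was 11.7%, against 7.79% of autosomal shared peaks, where the share ran between 5.03% on chromosome 1 and 9.75% on chromosome 19. The X regions were lower than the autosomal ones, with a median of 2.09 against 2.69 in replicate 1 and 1.24 against 1.81 in replicate 2. Narrower X peaks were lower than autosomal ones too, at 0.834 against 1.10 in replicate 2. The share of X regions at starts was 93.5% (88.1 to 97.0%). The Y chromosome had 9 narrower shared peaks and no wide region in these samples of females.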

How the data were processed

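DNase-seq peaks, footprints and FDR values of 2 samples (1 group) were used as the authors deposited them, on mm10 per the labels. Peak heights are a signal that the authors gave once per peak, with no stated normalisation. FDR values are adjusted p-values that the authors deposited per stretch of bases, listed under 0.05, and each footprint carries the same deposited p-value of 0.01. The aligner, peak caller and normalisation were not given in the sources used here, and read depth is unknown. The shorter peak list held 98813 peaks in replicate 1 and 55135 in replicate 2. The members and lists were chosen with earlier results of these data known. Starts and genes came from GENCODE M21 and sequence from GRCm38.p6, the build of mm10, where 0 peaks ended beyond a chromosome. Distances run from the region's edge, and footprints count by their centre. Heights were compared as the highest replicate 1 peak over the replicate 2 peak. Shares carry exact Clopper-Pearson intervals at 95%, for counting error over regions only. Regions are not replicates, and p-values over them were not computed. Named genes were the 10 widest, those with the most replicate 1 peaks or footprints, the 10 widest away from starts, and up to 4 genes with the widest region and 2 with narrower peaks of each of 18 lists (326 entries). Other names are stated as chosen after their values were seen. Alternatives changed width, overlap, peak list, window, starts and replicate roles. The measures were checked on 600 simulated peaks with Python 3.11.15, pandas 2.3.3, numpy 2.4.6, scipy 1.17.1 and pysam 0.24.0, and 10 of 10 were recovered. Results for a few listed genes are not reported here.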

Additional observations from a re-analysis of the deposited data

How the results depend on the processing

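The number of regions was 7712 at a width of 400 bp, 2103 at 600 bp and 1514 with the roles of the replicates swapped, and ran from 1697 to 4070 with 1 replicate left out and no overlap asked. The share at starts was 85.4% at 400 bp, 89.7% at 600 bp, 76.4% with the longer lists, 90.9% for the 50% of each list with the higher signal and 81.1% with the roles swapped. With 1 replicate left out it ran from 77.6 to 87.0%, the lower value for wide peaks of replicate 1 alone. It was 83.4% with a window of 500 bp, 90.5% with 2 kb, 81.8% for protein-coding starts and 85.4% from the centre. The same 4 settings gave 37.1%, 48.5%, 35.8% and 41.7% of the narrower peaks. The share with 2 or more replicate 1 peaks was 29.8% at 400 bp, 61.8% at 600 bp, 56.8% where replicate 1 covered 50% or more, 41.8% for the 50% of each list with the higher signal, 38.3% with the roles swapped and 29.1% without regions that overlap another peak, a setting chosen after seeing the data.

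Footprints per 100 bp were 0.981 in the regions without those overlaps, and with replicate 2 left out they were 0.977 in the regions and 1.33 in narrower peaks. The log2 height ratio with summed replicate 1 peaks was 1.04 in the regions and 0.75 in narrower peaks, which turns their order. In the central 300 bp GC content was 68% in the regions and 55% in narrower peaks, and the CpG ratio 0.816 and 0.379. The share of protein-coding genes with a region was 12.8% by the most 5' start, 13.8% with a window of 500 bp, 25.5% at a width of 400 bp and 8.04% at 600 bp. Of 90 list counts recomputed 24 moved by over 1.5 times, among them steroid and cholesterol synthesis, which had 0 genes at 600 bp. Of 96 motif shares 57 moved outside their 95% intervals, and the motifs more frequent in the regions away from starts numbered 4 with 200 bp and 7 at the highest replicate 1 peak, a setting chosen after seeing the data, against 6 as reported. A changed width or list changes which peaks are counted; beyond that the cause was not tested.

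No paired analysis was possible because there was 1 group of 2 samples, whose replicate numbers pair nothing. Counting error per step limits the precision of low regions such as Lrp2 more than that of high ones.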

Other observations

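A further 95 peaks of replicate 2 were 500 bp or wider and overlapped no peak of the shorter replicate 1 list. They were low, with a median height of 0.645 in replicate 2 and a median width of 600 bp. Of these, 56 lay within 1 kb of an annotated start, or 58.9% (exact 95% binomial interval 48.4 to 68.9%). A replicate 1 base at an FDR of 0.001 or less lay in 26 of them, any listed replicate 1 base in 54, and a peak of the longer replicate 1 list in 37. The widest was at Smad6, an inhibitor of BMP signalling, with 1220 bp, a replicate 2 height of 1.34 and 0 footprints. The next lay at Tril, a Toll-like receptor accessory gene, with 1180 bp and a height of 0.886.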
